A study of Zea mays with 6 samples.

Results

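One array of the series set laser-microdissected pre-meiotic cells of a maize mac1 mutant against those of a mac1 heterozygote, both from anthers 1 mm long. It carried 2 of the 6 samples, chosen by their labels, with the mutant in the red channel (Cy5) and the heterozygote in the green channel (Cy3). The series' design text calls the heterozygote wild type, the labels name neither the mac1 allele nor the inbred background, and the sources used here do not state how many plants gave cells. The other 4 samples were labelled wild type and came from the inbred line W23. Their labelled anther length was 700 µm (another label gives 701 µm for replicate 2). They were dissected pre-meiotic cells in replicates 1 and 2, then whole anthers in replicates 1 and 2, on dye-swapped arrays of another slide. Plants were field-grown, cells were cut with a laser microdissection microscope, and total RNA was linearly amplified before labelling. With 1 mutant sample, 1 heterozygote sample and no dye swap, genotype, dye and sample cannot be told apart on the mac1 array, so every mac1 value below is a description and no p-value is given.

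mac1 (multiple archesporial cells1) encodes a small secreted protein of the young anther. It is known to limit how many cells take the germline (archesporial) fate and to prompt the neighbouring cells to divide and form the wall layers. Anthers of mac1 mutants hold excess archesporial cells and lack the normal layers around them, so cells cut from mutant and heterozygote anthers come from lobes of different make-up. In bulk samples, fewer cells of a type and less RNA per cell cannot be told apart.

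The array held 42034 maize probes, of which 27161 carry only a TC number, the name of a cluster of expressed sequence tags, and 14850 only another sequence accession or assembly ID. A readable gene name stood on 23 probes, and 4 probes matched the RefSeq gene table directly. There was no probe named mac1 or msca1, so the labels could not be checked on the mutated gene itself. AM1 was the only probe name from the list of markers of pre-meiotic cells, and its probes were well above background in mutant and heterozygote alike. No probe could be tied by name to tapetum, anther wall or green tissue.

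The scanner software called 64.4% of probes well above background in the mutant and 72.9% in the heterozygote, against 73.9% to 77.7% in W23 pre-meiotic cells and 82.5% to 84.3% in W23 whole anthers. The median local background was 38.0 scanner units in the mutant's channel and 22.0 in the heterozygote's, and the part of this in the lower detection was not tested. A probe counted as measured if it was well above background in at least 1 of these channels and not flagged as an outlier spot, which left 32266. Levels given per sample below are log2 intensities after background correction and scaling between arrays, on which 1 unit is a 2-fold step. Brightness classes instead use the mean level of both mac1 channels before scaling between arrays. Their bounds therefore do not apply to the levels given per sample. The precision within the array can be read from 10 spike-in controls with 32 spots each: their log2 ratios had SDs over spots of 0.0661 to 0.124. This error covers spots of 1 hybridisation only, and holds no spread between plants, dissections or amplifications. That there is 1 array limits the precision of all mac1 values.

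How many transcripts differed by 2-fold or more depended on the treatment of dim signals. With an offset of 50 scanner units added to each channel, the setting used for the ratios below, 252 of the 32266 measured probes (0.781%) were at least 2-fold higher in the mutant and 179 (0.555%) at least 2-fold lower, together 1.34%. Without the offset the numbers were 1602 higher and 1955 lower, and with the scanner software's processed signals 3404 and 3246. With the offset, the numbers at 4-fold were 25 higher and 24 lower, and at 8-fold 0 higher and 6 lower. Levels in mutant and heterozygote correlated at 0.978 across probes of this array (Pearson; Spearman 0.970). The SD of the log2 ratios was 0.293.

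By the share of all probes past 2-fold, mutant and heterozygote differed about as much as replicates of W23 samples did. Over the same probes, 1.48% differed by at least 2-fold between pre-meiotic replicates 2 and 1, and 1.56% between whole-anther replicates 2 and 1. The SDs of those differences were 0.300 and 0.316. Among the brightest 25% of probes the shares were 4.21% for mutant against heterozygote, 4.65% for the pre-meiotic replicates and 4.04% for the whole-anther replicates, and the SDs were 0.473, 0.439 and 0.440, highest for mutant against heterozygote. The W23 replicates lay on separate arrays in opposite dyes, while mutant and heterozygote shared an array. Probes past 4-fold numbered 49 between mutant and heterozygote, 25 between W23 pre-meiotic replicates and 60 between W23 whole-anther replicates.

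**Figure D1:**
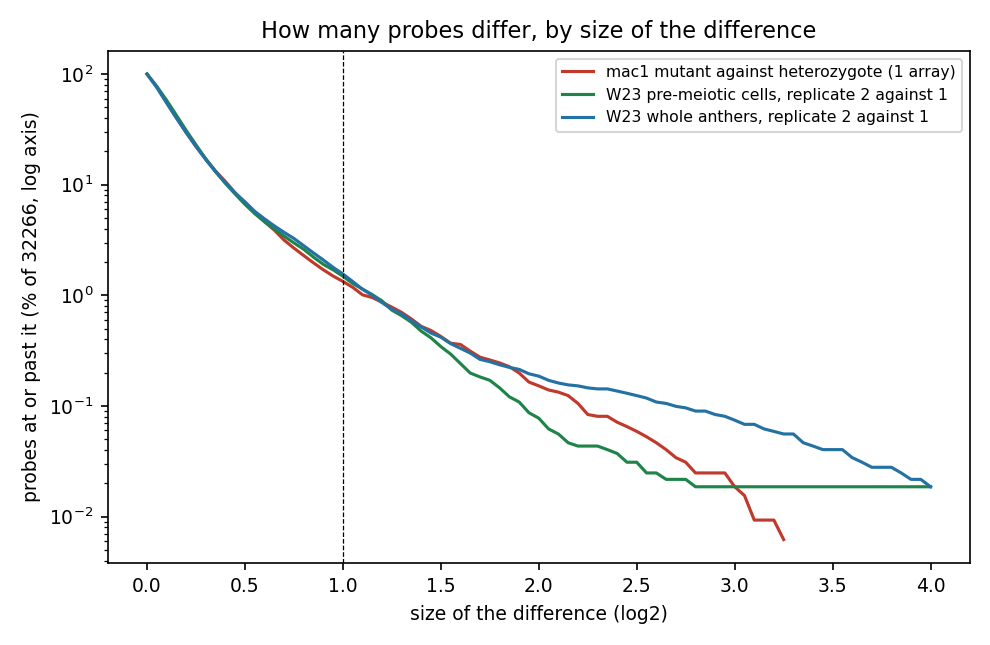
The curves show the share of 32266 measured probes (vertical, percent, log axis) that differed by at least a given size (horizontal, log2) between mac1 mutant and heterozygote, between W23 pre-meiotic replicates and between W23 whole-anther replicates. At 2-fold (dashed line) the curves stand at 1.34%, 1.48% and 1.56%, and the mac1 curve ends at a size of 3.28.

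Both mac1 samples stood further from the W23 pre-meiotic cells than from each other. The mutant differed by at least 2-fold from W23 replicates 1 and 2 at 5.78% and 4.20% of probes, and the heterozygote at 4.50% and 3.24%. The mac1 anthers were longer, and their samples lay on another slide and scan. Stage, slide, scan and any difference of line therefore cannot be told apart in these shares.

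With the offset, only bright probes passed 2-fold. In the brightest 25% (mean log2 level 7.04 to 17.18, before scaling between arrays) 184 probes were at least 2-fold higher in the mutant and 156 at least 2-fold lower, 4.21% of that class. In the next 25% the numbers were 68 and 23, or 1.13%. The dimmer 50%, up to a level of 6.18 on the same unscaled measure, held 0 probes past 2-fold. The offset draws dim ratios towards 0. Ratios in the lower part of the brightest class could differ too. Spike-in E1A_r60_a97, at a mean level of 7.47, had a log2 ratio of 1.69 with the offset and 2.64 with processed signals, not centred. Spike-in E1A_r60_3, brighter at 9.65, had 2.26 and 2.44. On simulated arrays with 200 probes changed 4-fold, 46.5% were recovered at 2-fold with the offset and 100% without it. With the offset, 76.6% of those in the brighter 50% were recovered. The simulated noise scaled with the signal, and no background noise was added. The recovery without the offset therefore cannot show how many dim changes would be found on the real array. The processed signals from the scanner software have no such offset. In them 20.6% of measured probes were past 2-fold, 2158 of these in the dimmest 25% and 2530 in the next.

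Most of the probes past 2-fold with the offset were past 2-fold in the same direction under 5 processings. All 5 start from the same array, so this is not replication. The offset setting also passed far fewer probes than processed signals did (1.34% against 20.6%), so passing the latter asks little more. A total of 174 probes were at least 2-fold higher in the mutant, and 162 at least 2-fold lower, with and without the offset, with median centring, with processed signals and in the authors' deposited value table. Ratios from processed signals and from the authors' table were first centred on their median over measured probes. That is 0.853% and 0.794% of the 20409 measured probes with values above 0 in that table. The higher set covered 171 sequences, with a median ratio of 2.76-fold. Its levels ran from 7.64 to 13.40 in the mutant (median 9.09), against 6.27 to 11.94 in the heterozygote (median 7.55). The lower set covered 162 sequences, with a median ratio of 2.48-fold towards the heterozygote. Its levels ran from 6.65 to 13.63 in the mutant (median 7.99), against 7.83 to 15.05 in the heterozygote (median 9.54).

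**Figure D2:**
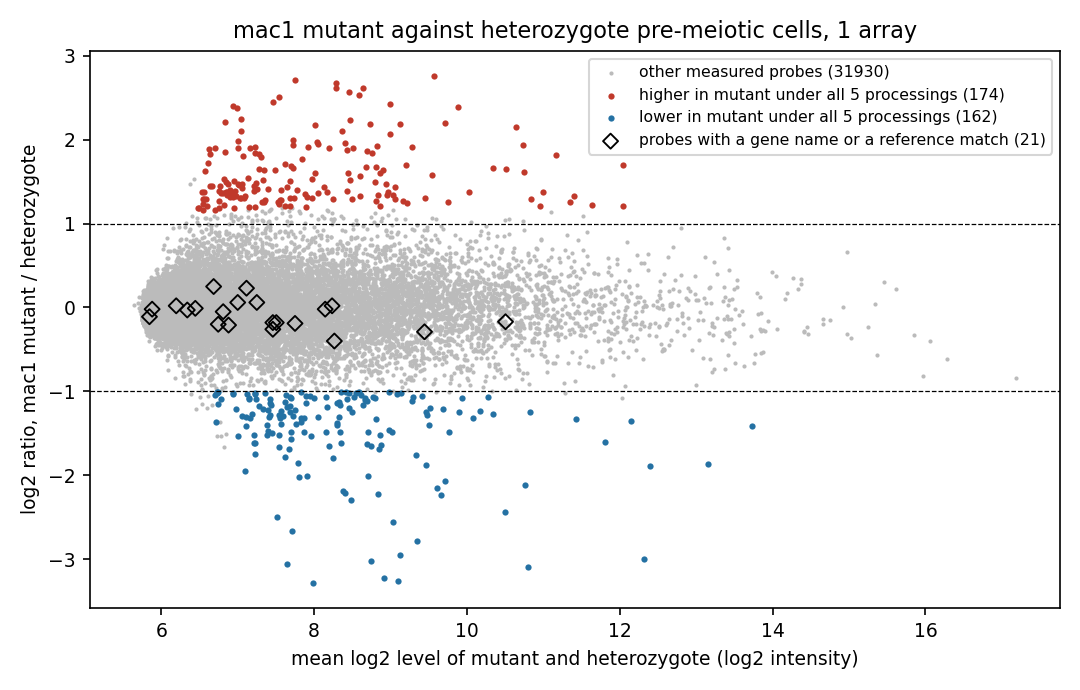
Each point is 1 of 32266 measured probes, placed by its mean log2 level before scaling between arrays (horizontal) and its log2 ratio of mac1 mutant over heterozygote (vertical), with dashed lines at 2-fold. The diamonds are placed by the mean of the scaled levels, so their horizontal positions cannot be compared with those of the points. Red marks the 174 probes higher and blue the 162 probes lower under all 5 processings, and open diamonds the 21 measured probes with a readable gene name or a match in the reference table (AI676903), which lie between -0.40 and 0.25.

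The highest ratios in the mutant belonged to TC311854 and TC280229, neither of which the sources pair with a gene. TC311854 had a log2 level of 11.51 in the mutant and 8.75 in the heterozygote, a log2 ratio of 2.76 (6.77-fold). In W23 it stood at 8.26 and 8.91 in pre-meiotic cells and at 13.98 and 13.85 in whole anthers. The mutant thus lay above all 3 other samples of dissected cells and below both whole-anther samples. TC280229 had a level of 9.74 in the mutant and 7.03 in the heterozygote, a log2 ratio of 2.72 (6.57-fold). Its W23 levels were 6.74 and 6.62 in pre-meiotic cells and 9.19 and 8.81 in whole anthers, so the mutant stood above every other sample, and the heterozygote was the highest of the other samples of dissected cells. Processed signals gave 9.04-fold for TC311854 and 19.6-fold for TC280229.

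The lowest ratios belonged to CF059868 and TC307708, likewise paired with no gene. CF059868 stood at 6.98 in the mutant and 10.26 in the heterozygote, a log2 ratio of -3.28, or 9.71-fold lower in the mutant. Its W23 levels were 8.78 and 9.25 in pre-meiotic cells, but 8.48 and 12.86 in the whole-anther replicates. TC307708 stood at 8.04 in the mutant and 11.31 in the heterozygote, a log2 ratio of -3.27, or 9.63-fold lower in the mutant. Its W23 levels were 11.68 and 11.38 in pre-meiotic cells, and 9.54 and 13.15 in the whole-anther replicates. For both sequences the whole-anther replicates differed as much as mutant and heterozygote did, with the Cy5 sample the lower one each time. The pre-meiotic replicates, also of opposite dye, differed by 0.47 for CF059868 and 0.30 for TC307708. With the mean red over green ratio of the W23 arrays subtracted, the ratios were -1.32 for CF059868 and -1.31 for TC307708. That mean takes in the differences between whole-anther replicates as well as dye.

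**Figure D3:**
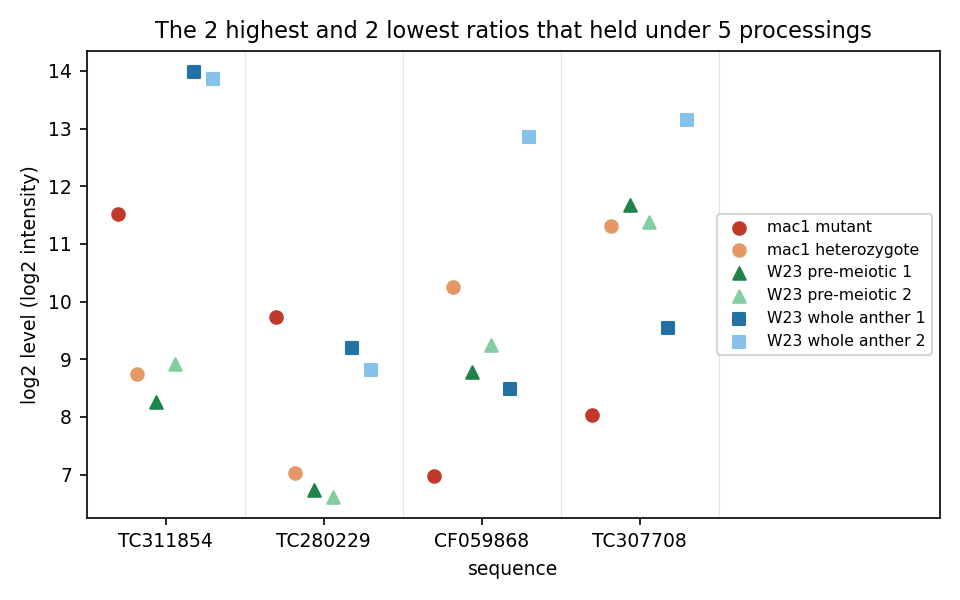
Log2 levels (vertical) of the sequences with the 2 highest and the 2 lowest ratios of mutant over heterozygote that held under 5 processings, with 1 point per sample. For CF059868 and TC307708 the whole-anther replicates lie at 8.48 and 12.86 and at 9.54 and 13.15.

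More of the lower than of the higher probes also varied between W23 replicates. Of the 179 probes at least 2-fold lower in the mutant, 24 (13.4%) also differed by at least 2-fold between W23 whole-anther replicates and 11 (6.15%) between pre-meiotic replicates. The 252 higher probes included 4 (1.59%) and 10 (3.97%) of that kind, against 1.56% and 1.48% of all measured probes. Only brighter probes passed 2-fold on the mac1 array, so shares over all probes are a low base. Among the brightest 25% of probes, 4.04% differed by at least 2-fold between whole-anther replicates and 4.65% between pre-meiotic replicates. Against these, only the 13.4% of lower probes stood well above its base. In 19 of the 24, the whole-anther sample labelled with Cy5 was the lower one, as the Cy5-labelled mutant was on the mac1 array. Over all measured probes, the Cy5 whole-anther sample was the lower one at 400 of 503 such probes. Among pre-meiotic replicates, the Cy5 sample was the lower one at 8 of the 11, but over all measured probes it was the lower one at only 89 of 477 and the higher one at 388. The Cy5 sample was thus mostly the lower one between whole-anther replicates and mostly the higher one between pre-meiotic replicates. The part of dye in these differences was not tested. Leaving out every probe that varied between W23 replicates left 239 probes higher and 148 lower.

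Set against W23 pre-meiotic cells, the mutant alone stood apart more often than the heterozygote alone, both at the higher probes and over all measured probes. A sample was taken as within the W23 range if its level lay no more than 2-fold outside the span of both pre-meiotic replicates. At 98 of the 252 higher probes (38.9%) the mutant lay outside that range and the heterozygote within it, and at 54 (21.4%) the heterozygote lay outside and the mutant within. At 96 both lay within it and at 4 neither. At the 179 lower probes the split was even: 43 with the mutant alone outside, 45 with the heterozygote alone outside, 81 with both within and 10 with neither. Over all measured probes, the mutant alone was outside at 597 (1.85%) and the heterozygote alone at 309 (0.958%), in about the same proportion as at the higher probes. Anther length, slide and scan differ between the mac1 and W23 samples, and the labels do not name the line of the mac1 samples. The part of each in these counts was not tested.

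Transcripts that W23 pre-meiotic cells hold at lower levels than whole anthers were found at both ends of the mac1 ratios. Of the 2037 measured probes at least 2-fold lower in W23 pre-meiotic cells (6.31% of those measured), on average over the W23 arrays and with the same sign on each, 73 (3.58%) were at least 2-fold higher in the mutant and 41 (2.01%) at least 2-fold lower. Over all measured probes these shares were 0.781% and 0.555%. Of the 1058 probes at least 2-fold higher in W23 pre-meiotic cells (3.28% of those measured), 6 (0.567%) were higher in the mutant and 32 (3.02%) lower. The median mac1 log2 ratio was -0.01 over the class lower in W23 pre-meiotic cells and -0.17 over the class higher in them, against -0.0096 over all.

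Within the brightest 25%, where 2.28% of probes were higher in the mutant and 1.93% lower, the shares were 7.74% and 4.44% for probes lower in W23 pre-meiotic cells. For probes higher in W23 pre-meiotic cells they were 0.726% and 3.39%. With processed signals, the class lower in W23 pre-meiotic cells had 15.7% of probes higher and 14.9% lower in the mutant, against 3404 and 3246 of all 32266 measured probes (20.6% together). The class higher in W23 pre-meiotic cells had 2.65% and 5.86%, both below the shares over all measured probes, whereas among the brightest 25% it had 2.42% and 5.20%, against 4.83% and 2.93% of all probes that bright. The W23 dye estimate is the mean red over green ratio of the W23 arrays, so differences between W23 replicates enter it along with dye. With it subtracted from the reported ratios, the class lower in W23 pre-meiotic cells had 4.12% higher and 3.44% lower in the mutant. The class higher in W23 pre-meiotic cells then had 0.567% and 2.65%. Wall and other somatic cells are part of the whole anther, but no named marker of them was on the array, so their part in the mutant sample was not tested.

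**Figure D4:**
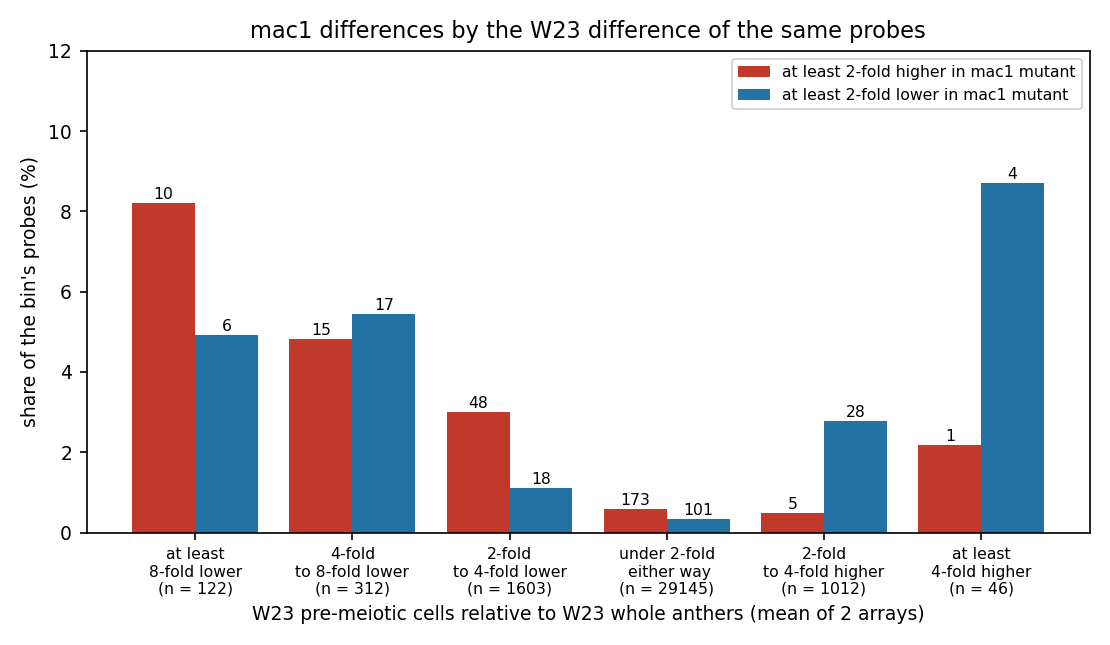
Measured probes were binned by the level in W23 pre-meiotic cells relative to W23 whole anthers (horizontal), and bars give the share of each bin (vertical, percent) that was at least 2-fold higher (red) or lower (blue) in the mac1 mutant, with the number of probes above each bar. The share higher in the mutant is 0.594% where the W23 samples differ by under 2-fold and 0.494% in the next bin (5 of 1012 probes), and the share lower in the mutant is 0.347% in the first of these bins, below that of every other bin. The last bin holds only 46 probes.

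Detection in 1 channel only added little. A total of 1636 probes were well above background in the mutant only and 5208 in the heterozygote only. Nearly all of them were dim: 99.8% and 99.6% lay in the dimmer 50%. The lower bound on the fold, taken against whichever was higher of the dim probe's own signal and the channel's lowest signal called well above background, reached 2-fold at 1 mutant-only probe and at 7 heterozygote-only probes. The largest bounds were at least 2.89-fold higher in the mutant and at least 8.32-fold lower. Of the mutant-only probes, 35.3% were well above background in both W23 pre-meiotic replicates and 24.7% in neither, and of the heterozygote-only probes 51.2% and 19.2%. Of probes detected in both mac1 channels, 94.6% were detected in both W23 pre-meiotic replicates.

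Different probes of the same sequence often gave different ratios. Several measured probes were present for 1514 sequences, and the log2 ratios of their brightest and second brightest probes correlated at 0.335 across sequences (Pearson, a description, since both sit on 1 array). At 29 of these sequences some probe was at least 2-fold higher in the mutant, at 3 of them every probe was, and at 22 all probes had the same sign. Of the 11 sequences with a probe at least 2-fold lower, 0 had every probe past 2-fold, and 8 had the same sign throughout. The probes that did not pass were dim, with a median level of 6.02 against 8.05 for those that passed at the first 29 sequences, and 6.04 against 7.70 at the 11. With processed signals every probe was past 2-fold at 12 of the 29 sequences and 3 of the 11.

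None of the probes with a readable gene name, and not AI676903 either, reached 2-fold. These 24 probes stand for 12 names, 21 of them were measured, and their log2 ratios ran from -0.40 to 0.25, with 6 above 0 and 15 below. Over all measured probes 1.34% were past 2-fold. With processed signals 3 of the 21 were past 2-fold, all of them ZmRAD21 probes, against 20.6% of all measured probes. Search words for 21 groups of genes found probes for 3 groups: meiosis (AM1 only), cohesin with shugoshin, and transposons.

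AM1 (ameiotic1) is required in maize for cells to leave the mitotic programme and begin meiosis, and its levels in mutant and heterozygote were close. Its brightest probe had a log2 level of 7.41 in the mutant and 7.60 in the heterozygote (log2 ratio -0.18), the second 7.23 and 7.00 (0.23), and the third 7.03 and 6.97 (0.06). The ratios of these probes of 1 gene span 0.41 and differ in sign. That span is more than the spot-to-spot SD of any spike-in, all of which were bright. In W23 pre-meiotic cells the same probes stood at 6.78 and 7.03, at 7.01 and 6.79, and at 6.51 and 6.39. In whole anthers they stood at 5.83 and 5.77, at 5.67 and 5.77, and at 6.08 and 6.02. All 3 AM1 probes were therefore higher in the mutant and in the heterozygote than in any whole-anther sample. With median centring the third probe turned to -0.05.

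Cohesin is the ring that holds sister chromatids together, and its probes lay mostly just below 0. Of 14 cohesin and shugoshin probes, 11 were measured, 1 had a ratio above 0 and 10 below. Their median was -0.18 against -0.0096 over all measured probes. ZmSMC3 and ZmRAD21 each gave 4 of the 11, so the signs are not those of 11 separate genes. ZmSMC3, a core subunit of the ring, had levels of 9.30, 8.06, 7.65 and 7.33 on its 4 probes in the mutant, against 9.59, 8.47, 7.85 and 7.59 in the heterozygote. Its log2 ratios were -0.29, -0.40, -0.19 and -0.26, so all 4 probes were lower in the mutant, by 1.14-fold to 1.32-fold. The brightest ZmSMC3 probe differed more between W23 replicates than between mutant and heterozygote, at 8.84 and 10.08 in pre-meiotic cells and 9.03 and 9.86 in whole anthers. Its other 3 probes differed less, by 0.16 to 0.19 between pre-meiotic replicates and by 0.06 to 0.09 between whole-anther replicates.

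ZmSMC1, the partner subunit, stood at 8.14 and 7.37 on its 2 probes in the mutant and at 8.15 and 7.55 in the heterozygote (log2 ratios -0.02 and -0.18). ZmRAD21, the kleisin that closes the ring, was dim. The brightest of its 7 probes stood at 6.65 in the mutant and 6.84 in the heterozygote (-0.20), and 3 probes were not well above background in either genotype. Processed signals gave log2 ratios of -1.33, -1.05 and 1.20 for its 3 brightest probes, so that probes of this gene disagreed in direction. The brightest ZmRAD21 probe also differed between W23 pre-meiotic replicates, at 6.31 and 7.42. ZmSGO1, a shugoshin that protects cohesion at centromeres, stood at 6.78 in the mutant and 6.84 in the heterozygote (-0.05), against 6.93 to 7.02 in the W23 samples.

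The MuDR transposon drives the Mutator family of maize and encodes the products of mudrA, its transposase gene, and mudrB. Of its 4 probes, 2 had ratios above 0 and 2 below. 12367:MUDR-TIRA, named after a terminal inverted repeat of the element, stood at 6.81 in the mutant and 6.56 in the heterozygote (0.25). 290:MUDRB stood at 6.78 in the mutant and 6.98 in the heterozygote (-0.21). The mudrA probes had ratios of -0.01 and 0.06. The brighter of these, 9258:MUDRA-21, was lower in both mac1 samples, at 7.28 in the mutant and 7.22 in the heterozygote, than in any W23 sample, where it ran from 8.15 to 8.76.

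AI676903, a protein-coding gene listed as LOC100279569 in the reference table, stood at 8.25 in the mutant and 8.22 in the heterozygote (0.02). In W23 it stood at 8.39 and 8.52 in pre-meiotic cells and at 7.51 and 7.73 in whole anthers, so that both mac1 samples lay with the dissected cells. ZMATP70, the brightest of the named probes, stood at 10.42 in the mutant and 10.59 in the heterozygote (-0.17), against 11.07 and 10.71 in W23 pre-meiotic cells and 9.96 and 9.70 in whole anthers. ZMU32636 was well above background in the heterozygote only, at 5.79 in the mutant and 5.90 in the heterozygote.

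**Figure D5:**
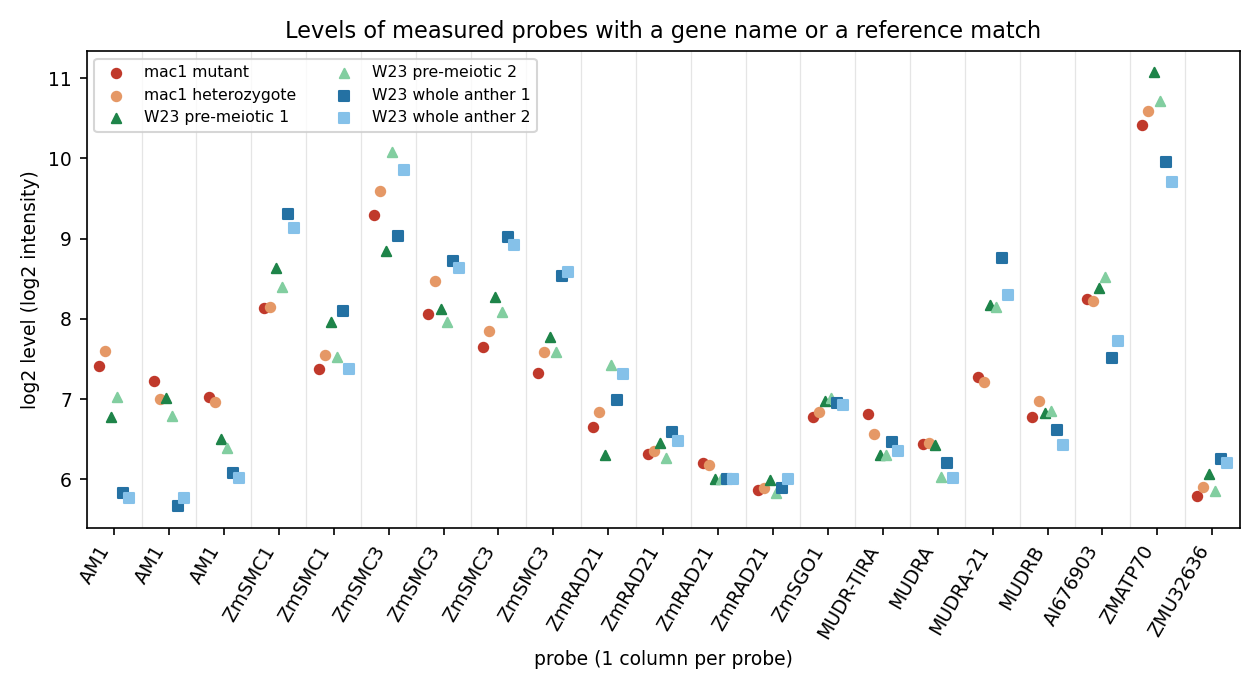
Log2 levels (vertical) of the 21 measured probes with a readable gene name or a match in the reference table, 1 column per probe and 1 point per sample. The log2 ratios of mutant over heterozygote lie between -0.40 and 0.25, while the AM1 probes lie above the whole-anther samples in all 4 samples of dissected cells.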

How the data were processed

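Messenger RNA levels were measured on 3 2-colour Agilent arrays, of which 1 carried the mac1 samples. Per the file headers, Agilent Feature Extraction 10.5.1.1 made the deposited intensity columns, which give median spot and local background brightness, plus processed signals that the software had background-subtracted and dye-normalized. R 2.13 and limma 3.8.3 are named in the submitters' processing notes. A value table deposited by the authors gives intensity per sample, not in log units, with steps not given in the sources used here. Per the file headers, other deposited columns hold flags of 0 or 1, used for detection, saturation and outlier spots.

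With R 4.3.3 and limma 3.58.1, median signals were corrected by normexp (offset 50) over all spots. Ratios were normalized by loess within arrays with control and outlier-flagged spots at weight 0, and channels were scaled between arrays by Aquantile. On the mac1 array 12 flagged probe spots were left out and 0 were saturated. The direction is red over green, the mutant over the heterozygote, per the labels. A fold of 2 was the fixed size for description, and the calculation was tested on simulated data. Named were probes with a readable gene name or a reference match and, of sequences without a gene, the 2 highest and 2 lowest ratios past 2-fold under 5 processings. The rule allowed 12 each way, and the shorter list was chosen because these IDs name no gene. Members, lists and sizes were chosen with earlier results of these data known. RefSeq gene names came from the assembly Zm-B73-REFERENCE-NAM-5.0, without coordinates. No sequences are shown, since none were used here.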

Additional observations from a re-analysis of the deposited data

Results flagged for a closer look

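Control features of the array that no comparison used carried signal on the mac1 array. The design has 18 control features with names starting in DCP, and 16 of them were well above background in mutant and heterozygote on all their spots. Of the 13 whose names start in ETG, 1 passed in the same way. None of the 12 RC features did (0 of 12), while 2 of 153 spots of the negative control passed in both channels. The log2 ratio of mutant over heterozygote ran from 0.34 to 3.70 over these DCP features and stood at 0.28 for the ETG feature. The sources used here do not state what these features detect.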

How the results depend on the processing

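The counts of probes at least 2-fold higher and lower in the mutant were 252 and 179 (58.5% higher). They were 1602 and 1955 without the offset (45.0% higher), 3404 and 3246 with processed signals centred on their median (51.2%), and 2980 and 3771 with the same signals not centred (44.1%), a setting added after seeing the data. Median centring gave 176 and 289 (37.8%). Each count stayed within 1.5 times in the authors' table, with its ratios centred on their median (326 and 197 of 20409 probes), and with the W23 dye subtraction (293 and 203 of 32266). The same held for the filter on both channels (251 and 172 of 25422) and all unflagged probes (252 and 179 of 42022). The former left out probes detected in 1 channel only, nearly all of them dim, and the latter added probes detected in neither. With the offset, dim probes did not pass 2-fold, so these counts could hardly change. As the authors' table covered fewer probes, its shares rose by more than its counts. Which side was larger therefore depended on the offset and the centring. The median of the AM1 probes, 0.06 as reported, was 0.18 with processed signals and -0.05 with median centring. That of the cohesin list, -0.18 as reported, was -0.30 without the offset, -0.28 with processed signals, -0.36 with these not centred and -0.05 over all unflagged probes. The MuDR median, 0.03 as reported, was 0.25 with processed signals and 0.16 with these not centred. Of the 147 values of 25 single probes under other settings, 96 moved by more than the pooled spike-in SD of 0.0868, an SD from bright spots. The single probes past 2-fold were picked for holding their direction under 5 processings, so in those settings their sign could not change. They also kept their sign with the W23 dye subtraction. Among single probes under 2-fold signs did change, as for the third AM1 probe (0.06 as reported, -0.05 with median centring). No paired analysis was possible because each mac1 group has 1 sample, and for the same reason no sample could be left out. Dim probes are limited by signal over background: with the offset, 0 of those in the dimmer 50% were past 2-fold.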
